A study of Mus musculus with 12 samples.

Results

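Dbp, the D site albumin promoter binding protein gene, was followed in nucleus pulposus (NP) tissue of adult mice with and without a deletion of Glut1 (Slc2a1). It is 1 of the 22206 probe sets on the arrays and 1 of the 37 probe sets that could be given a single gene name. The gene was chosen from the authors' deposited table of probe sets that passed a 2-fold change and a p-value of 0.05 between the genotypes on these same arrays. Its genotype difference is therefore given as a description, without a test. The 6 cKO mice carried K19Cre, a tamoxifen-inducible Cre recombinase placed at the Krt19 gene, together with floxed Glut1 alleles on both chromosomes (K19Cre; Glut1f/f). The 6 WT mice were littermates with the same floxed alleles and no Cre (Glut1f/f), so both genotypes share the floxed locus. At 3 months of age mice of both genotypes were given 3 injections of tamoxifen, each of 100 μg per g of mouse. NP tissue was taken at 9 months, and each mouse has 1 array. Male and female mice made up the cohort in both genotypes, although the labels do not give the sex of single mice. Cre acts in Krt19-expressing cells, and the tissue was measured as a whole, so a change in the number of cells of a type cannot be told apart from a change in RNA per cell.

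DBP is a transcription factor of the proline- and acidic amino acid-rich basic leucine zipper family, whose other members are TEF and HLF. The circadian clock of a cell is a feedback loop in which CLOCK and BMAL1 switch on the Per and Cry genes, whose proteins then block CLOCK and BMAL1. Dbp lies downstream of this loop as an output gene: CLOCK and BMAL1 bind E-box elements of the gene, and its RNA goes through a large daily rise and fall in most mouse tissues. The protein in turn binds D-box elements of other genes, where the repressor NFIL3 competes with it. The mouse intervertebral disc is known to have a clock of this kind. The level of Dbp RNA in a tissue sample thus depends on the hour at which the sample was taken.

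The gene lies on the plus strand of chromosome 7 (GRCm38.p6, 45705100 to 45710203, 5104 bases from the first to the last annotated base). Car11, a carbonic anhydrase-related gene, ends 412 bases upstream of it. At its other end Dbp overlaps 741 bases of Sphk2, a sphingosine kinase gene on the minus strand. The sources used here do not place the Dbp probes on its exons, nor say whether any lie in the stretch shared with Sphk2. The 103 bases between the start of the RefSeq promoter window and the first annotated base of the gene are shown (chr7:45704997-45705099, plus strand, RefSeq, GRCm38.p6). They were chosen because they hold ACGTG, a form of the core of the hypoxia response element, a motif of interest in a hypoxic tissue. The first set of capitals is ACGTG, and the ATTGG that directly follows it is CCAAT read on the minus strand. The other form of the core, GCGTG, was not searched or marked. Its minus-strand letters, CACGC, are also present in lower case.

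Dbp upstream sequence: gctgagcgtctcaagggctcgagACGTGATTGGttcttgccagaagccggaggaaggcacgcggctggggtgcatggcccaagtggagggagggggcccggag

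The core ACGTG was found 1 time on either strand in the whole window of 300 bases (250 before and 50 after a start at base 45705247), and 19.6% of the 32851 RefSeq promoter windows of this length hold it. CCAAT was found 2 times, and 37.4% of the windows hold it. The E-box CACGTG, which itself contains ACGTG, is not among the letters of this window and is present in 7.2% of all windows. Neither is the D-box TTATGTAA, present in 0.9%. These are matches of letters only, and elements further inside the gene were not searched.

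The targeted gene was lower in every cKO mouse than in any WT mouse. Slc2a1, which encodes the glucose transporter GLUT1, had log2 values of 17.76 to 18.31 in the cKO mice and of 18.86 to 19.31 in the WT mice. The difference was -1.19 (SE 0.13, adjusted p = 0.00327, limma with Benjamini-Hochberg adjustment over all probe sets). The sources do not say whether its probes lie in the deleted exons. Slc2a1 was the 1 probe set past an adjusted p of 0.05, or 0.00450% of those tested. Array medians lay between 6.55 and 6.66, and no 2 arrays held identical values. The 75th percentiles differed more, from 9.18 in WT mouse 3 to 9.55 in WT mouse 2. Keratin, matrix and other markers of the tissue were not checked, since names came only from the authors' table of calls, which holds 2 of 23 marker genes listed for this purpose (Slc2a1 and Dcn).

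Dbp gave a strong signal on all 12 arrays. In the cKO mice its log2 values were 16.58, 17.00, 16.65, 17.12, 16.45 and 15.51 (mice 1 to 6), with a mean of 16.55 ± 0.57 (SD, n = 6). In the WT mice they were 16.52, 16.52, 15.11, 15.28, 15.07 and 15.58 (mice 1 to 6), with a mean of 15.68 ± 0.68 (SD, n = 6). The genotypes overlapped: cKO mouse 6 lay within the range of the lower WT mice, and WT mice 1 and 2 lay beside the cKO mice. The deposited values are log2 values, so 1 unit is a 2-fold difference in signal.

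**Figure D1:**
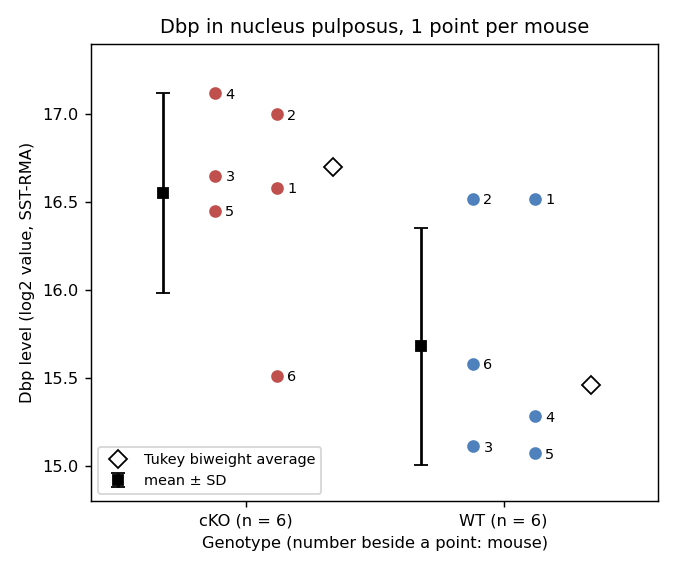
Dbp level (log2 value, vertical axis) of each cKO and WT mouse, with the mouse number beside each point, the mean ± SD (square and bars) and the Tukey biweight average (open diamond) of each genotype. The 5 higher cKO mice and WT mice 1 and 2 sit between 16.45 and 17.12, and cKO mouse 6 and the other WT mice sit between 15.07 and 15.58.

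Ordered by level, the mice fell into an upper and a lower set with a wide step between them. The upper set held cKO mice 4, 2, 3 and 1, then WT mice 1 and 2 at the same value, then cKO mouse 5. The lower set held WT mouse 6, cKO mouse 6 and WT mice 4, 3 and 5. The step between cKO mouse 5 and WT mouse 6 was 0.87, whereas the steps between all other neighbours were 0.35 or less. That step was also larger than the SD of either genotype. The other neighbours in the order, including cKO mouse 1 and WT mouse 1 at a distance of 0.06, differed by less than the SD within a genotype. The genotype labels thus part the 2 sets of Dbp values for 9 of the 12 mice, and the remaining 3 are cKO mouse 6 and WT mice 1 and 2.

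Against the mean of the WT mice, the signal was 2.71 times as high in cKO mouse 4 and 2.50 times in cKO mouse 2. It was 1.96, 1.87 and 1.71 times as high in cKO mice 3, 1 and 5, and 0.889 times in cKO mouse 6. WT mice 1 and 2 stood at 1.79 times their own group mean, and the other WT mice at 0.655 to 0.933 times. WT mice 1 and 2 thus had over 2 times the signal of WT mice 3, 4 and 5.

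On each array Dbp was among the brightest probe sets. It ranked 92nd to 293rd of 22206 in the cKO mice and 153rd to 402nd in the WT mice, and at most 1.81% of the probe sets on any array were as bright or brighter. It lay above the 99th percentile of the array in 5 of 6 cKO mice and in 2 of 6 WT mice. These ranks follow the same division as the log2 values, with cKO mouse 6 at rank 293 and WT mice 1 and 2 at ranks 153 and 168. Probe sets differ in how they respond to the same amount of RNA, so the ranks compare Dbp between arrays and do not give its abundance relative to other genes. The highest probe set of each array lay at 19.55 to 19.72, well above Dbp, and the array median moved by far less than Dbp did.

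**Figure D2:**
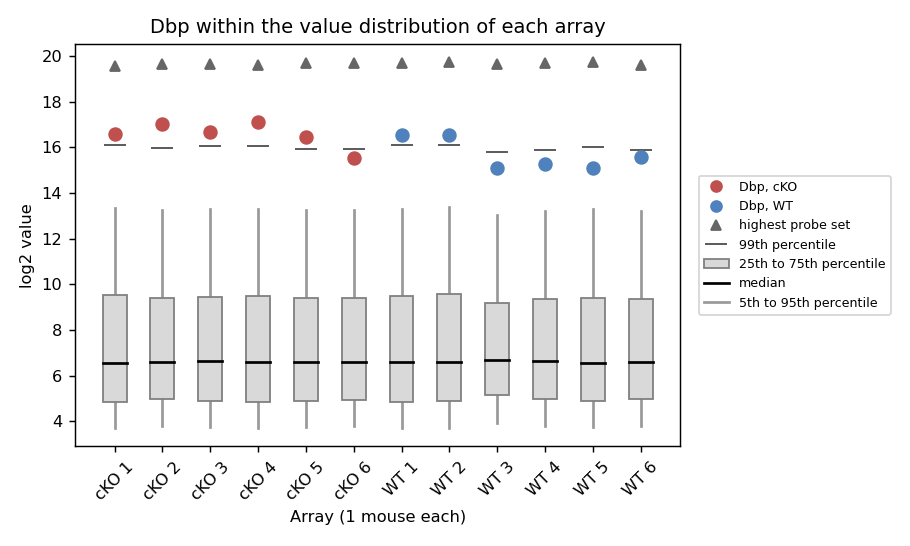
Log2 values on each of the 12 arrays (cKO mice, then WT mice): the grey box spans the 25th to 75th percentile, the line in it is the median, the grey whisker spans the 5th to 95th percentile, and the dash, triangle and coloured point mark the 99th percentile, the highest probe set and Dbp. The medians stay between 6.55 and 6.66, while Dbp lies above the 99th percentile in 5 cKO and 2 WT mice and below it in the others.

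Few probe sets varied as much between mice of 1 genotype, taken over all probe sets, dim ones included, and not over those of like brightness. The SD of Dbp was 0.57 in cKO, against a median of 0.25 over all probe sets, and it exceeded the SD of 96.7% of them. In WT it was 0.68, against a median of 0.32, and exceeded that of 95.3%. In cKO most of this spread came from a single mouse, since mouse 6 lay 1.04 below the group mean and the other 5 mice spanned 16.45 to 17.12. In WT it came from the division of the group, with mice 1 and 2 at 0.84 above the mean and the other 4 at 0.10 to 0.61 below it.

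The size of the genotype difference depended on how each group was averaged. By means, Dbp was 0.87 higher in cKO on the log2 scale (SE 0.31), a 1.83-fold difference. By medians, at 16.62 in cKO and 15.43 in WT, it was 1.18 higher. By Tukey biweight averages, which give less weight to values far from the group's median, it was 16.70 in cKO and 15.46 in WT, a difference of 1.24 or 2.37-fold. The averages in the authors' deposited table are 16.71 for cKO and 15.47 for WT, each within 0.01 of these biweight averages at 2 decimals. The biweight gave cKO mouse 6 a weight of 0.126 and the other cKO mice weights of 0.748 to 0.999. It gave WT mice 1 and 2 a weight of 0.347 each and the other WT mice weights of 0.912 to 0.984. The 3 mice that lay with the opposite genotype were thus the 3 that counted least.

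A 2-fold bound separates these averages, since Dbp lies above it by medians and biweight averages and below it by means. Probe sets at least 2-fold higher in cKO with an unadjusted p under 0.05 numbered 21 by biweight averages, or 0.0946% of all tested, and Dbp is one of them by the way it was chosen. With means the same criteria held for 13 probe sets, or 0.0585%, and Dbp is not among them. Just inside the bound by biweight averages was Minos1, at 1.01, and just outside it was an unnamed probe set at 1.00 (0.9963 before rounding).

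Leaving out single mice moved Dbp across this bound in both directions. By means the difference was 1.08 without cKO mouse 6 and 1.04 without WT mouse 1 or WT mouse 2, all above 2-fold. It was 0.75 to 0.89 without any other mouse. By biweight averages it was 0.98 without WT mouse 3 or WT mouse 5, below the bound, and 1.01 to 1.55 without any other mouse. The direction was the same in each of these cases, with Dbp higher in cKO. This is no support for the difference, since Dbp was chosen by it on these same arrays.

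**Figure D3:**
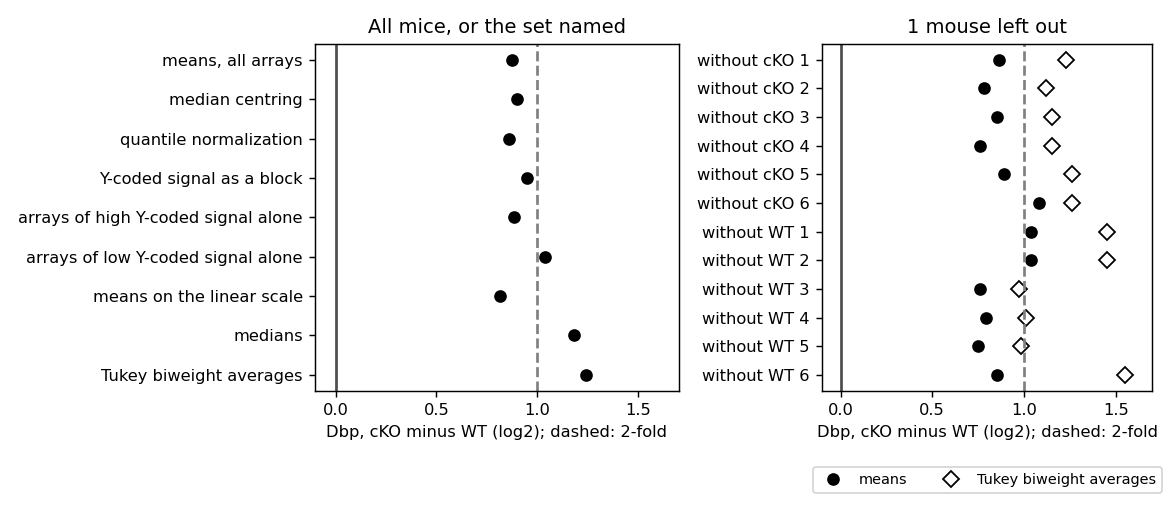
Dbp difference, cKO minus WT on the log2 scale (horizontal axes), for the averages and normalizations named at the left, and on leaving out each mouse in turn by means (filled points) and by Tukey biweight averages (open diamonds). All points lie above 0, between 0.75 and 1.55, and the dashed line at 1 marks a 2-fold difference.

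Signal of the probe sets coded to the Y chromosome in their identifiers differed widely between mice, so Dbp was also read within mice of like signal. The mean over these 219 probe sets was 7.46 to 8.70 in 7 mice (3 cKO and 4 WT) and 5.43 to 5.51 in the other 5 (3 cKO and 2 WT). Among the 7, Dbp was 16.58 to 17.00 in cKO and 15.11 to 16.52 in WT, without overlap, and differed by 0.89. Among the 5, it was 15.51 to 17.12 in cKO and 15.07 to 15.58 in WT, with overlap through cKO mouse 6, and differed by 1.04. Both sets held mice of high and of low Dbp. Each difference rests on few mice, and the nearest cKO and WT mice of the 7 were only 0.06 apart. The part of the Y-coded signal in the Dbp difference was not tested.

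The hour of tissue collection is not given for any mouse in the labels or the study's methods, so its part in the Dbp difference was not tested. The usual check would read Dbp against clock genes that peak at the same or at the opposite time of day, such as Nr1d1, Per3, Arntl and Nfil3. The array's full gene annotation was not used here, and names came only from the authors' table of calls. That table names 0 of 25 other clock genes listed for this purpose, so they were not analysed here. It holds only 39 of the 22206 probe sets, so a count of 0 says little about these genes. Dbp alone does not fix a time of day. Within a genotype, the highest and the lowest mouse differed in Dbp by 1.61 in cKO and by 1.45 in WT.

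To see which other genes varied with Dbp among mice, each genotype was centred on its own mean, which removes the genotype difference by which Dbp was chosen, and Pearson's r with Dbp was taken over the 12 mice. The r values are descriptions, with no p, since all probe sets of an array share its RNA sample and the genes were picked by r. Over the 22205 other probe sets r ran from -0.94 to 0.95, with a median of -0.02 and quartiles of -0.32 and 0.33. Named genes compared with Dbp numbered 35, all from the authors' table, and the probe sets most like Dbp over the whole array have no name in the sources used here. Centring does not undo the choice of these 35, which passed the same 2-fold call as Dbp on the same arrays.

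Among the named genes the 5 most like Dbp were Atp5d, Myeov2, Minos1, Usmg5 and Gstp2. They lie on chromosomes 10, 1, 4, 19 and 19. Atp5d encodes the delta subunit of the mitochondrial ATP synthase, and Usmg5 a small protein associated with the same complex. Minos1 encodes a component of the complex that organizes the inner mitochondrial membrane, Myeov2 a small subunit of the COP9 signalosome, and Gstp2 a pi-class glutathione S-transferase. Gstp2 has a near-identical neighbour, Gstp1, and whether its probes tell the pair apart was not checked. RefSeq now names Myeov2, Minos1 and Usmg5 as Cops9, Micos10 and Atp5md.

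Atp5d had the highest r, 0.90 (Spearman's rho 0.93), which 26 of all probe sets, Atp5d included, reached or exceeded. Its log2 values were 11.67 to 12.93 in cKO (median 12.58) and 11.05 to 12.80 in WT (median 11.43). As for Dbp, cKO mouse 6 had the lowest cKO value and WT mice 1 and 2, at 12.51 and 12.80, lay among the cKO mice and above the other WT mice. The r within cKO was 0.79 and within WT 0.98, over 6 mice each.

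For Gstp2, r was 0.77 (rho 0.79). Its values were 10.61 to 11.76 in cKO (median 11.27) and 9.22 to 11.70 in WT (median 10.04), again with cKO mouse 6 lowest in its group and WT mice 1 and 2 highest in theirs. Myeov2 and Minos1 had r of 0.84 and 0.82 (rho 0.86 and 0.91), and Usmg5 had 0.79 (rho 0.83). Within cKO these 4 genes had r of 0.58 to 0.68, and within WT 0.88 to 0.93. In all 5 genes cKO mouse 6 was the lowest cKO mouse, and WT mice 1 and 2 were the 2 highest WT mice.

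The likeness rested on the same mice that divided each genotype. By means, Atp5d, Myeov2, Minos1, Usmg5 and Gstp2 were 0.71, 0.83, 0.62, 0.64 and 0.87 higher in cKO, each below 2-fold. Averages that give less weight to mice far from the median can let such genes pass a 2-fold call, as with Dbp. The list of named genes may thus favour those in which the same mice deviate, and how far it does was not tested. Without cKO mouse 6 and WT mouse 1, the 2 farthest from the median (WT mouse 2 ties with WT mouse 1), r was 0.87 for Atp5d and 0.71 for Gstp2, with the other 3 genes between them. Without WT mouse 2 as well, a step added after the values were seen, Atp5d had an r of 0.56, Minos1 0.22, Myeov2 0.12, Gstp2 -0.07 and Usmg5 -0.10 over the 9 mice that were left. Leaving out these mice narrows the range of Dbp within each genotype by design.

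**Figure D4:**
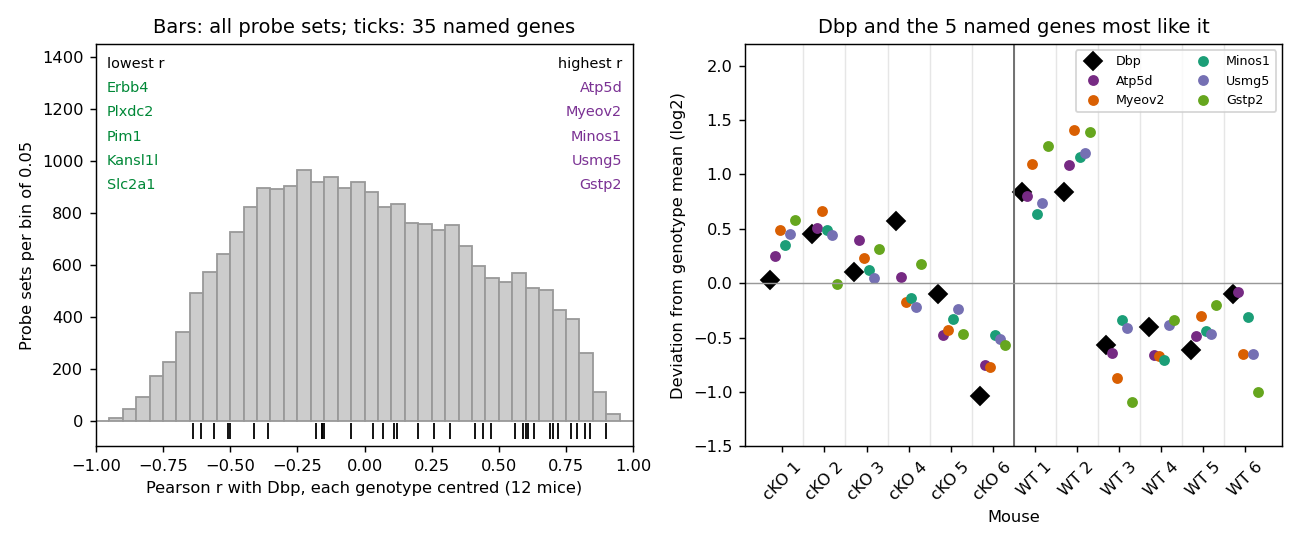
Left, Pearson's r with Dbp after centring each genotype, over 12 mice, as counts of probe sets per bin of 0.05 (bars), with ticks for the 35 named genes and the names of the 5 highest and 5 lowest. Right, deviation from the genotype mean (log2) of Dbp and the 5 named genes of highest r in each mouse, where cKO mouse 6 lies below 0 and WT mice 1 and 2 lie above 0 for all 6 genes.

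At the other end were Erbb4, Plxdc2, Pim1, Kansl1l and Slc2a1, with r of -0.64, -0.61, -0.56, -0.51 and -0.50. Erbb4 encodes a receptor tyrosine kinase for neuregulins, Plxdc2 a transmembrane protein and Pim1 a serine/threonine kinase. Erbb4 was 6.45 to 9.05 in cKO (median 7.73) and 8.18 to 10.21 in WT (median 8.71), and cKO mouse 6, lowest in Dbp, was its highest cKO mouse. For Slc2a1 the r was -0.24 within cKO and -0.80 within WT, where WT mouse 2 had the lowest Slc2a1 value, 18.86. Pim1 and Plxdc2 turned to r of 0.83 and 0.10 without cKO mouse 6, WT mouse 1 and WT mouse 2, whereas Erbb4, Kansl1l and Slc2a1 stayed below 0, at -0.71, -0.56 and -0.45. Without cKO mouse 6 and WT mouse 1 alone, r was -0.41 for Erbb4, -0.32 for Plxdc2, -0.27 for Pim1, -0.24 for Kansl1l and -0.70 for Slc2a1. Leaving out single mice moved r in both directions. For Kansl1l it was -0.33 without cKO mouse 6 and -0.63 without WT mouse 2. For Slc2a1 it was -0.33 without WT mouse 2 and -0.69 without cKO mouse 3.

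Dbp also moved with the leading axis of variation among mice. That axis, the first principal component of 21015 other autosome-coded probe sets after centring each genotype, held 27.6% of their variance. WT mice 1 and 2 had the highest scores, 31.8 and 47.0, and WT mouse 3 the lowest, -48.3, while cKO mice lay between -18.8 (mouse 6) and 17.3. The r of Dbp with these scores was 0.76, and 11.1% of the other autosome-coded probe sets had a larger r in size. For Atp5d, Myeov2, Minos1, Usmg5 and Gstp2 it was 0.81, 0.88, 0.79, 0.82 and 0.94. WT mouse 3 was low in both Dbp and score, but not every mouse followed. WT mouse 5 scored 1.4 with Dbp 0.61 below its group mean, and cKO mouse 2 scored -4.5 with Dbp 0.45 above its own. These r were not recomputed without cKO mouse 6, WT mouse 1 and WT mouse 2. The spread of Dbp within the genotypes was thus partly shared with a good part of the array. The mice at the ends of the axis also differed in the value distribution of their arrays. Within WT, mouse 2 had the highest 75th percentile, 9.55, and mouse 3 the lowest, 9.18. Within cKO, mouse 1 had the highest, 9.51, and mouse 6 the lowest, 9.38. Whether the axis reflects the mice or their RNA samples and arrays was not tested. The part that this axis plays in the genotype difference of Dbp was not tested either.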

How the data were processed

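NP RNA of 6 cKO and 6 WT mice was measured with 1 Mouse Clariom S array per mouse. The authors normalized the scanned arrays by SST-RMA in Expression Console and deposited log2 values with 2 decimals for 22206 probe sets. The fold changes and p-values in their deposited tables are their own comparison, and no value of theirs was used. They did decide which probe sets the authors' table of calls holds, and so the choice of Dbp and of every named gene. That table was read for gene names and for the group averages, which the authors deposited as log2 values.

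Samples were grouped by title. All probe sets were fitted without covariates or a filter in limma 3.58.1 (lmFit, eBayes; R 4.3.3), with Benjamini-Hochberg adjustment, after a run on simulated data with known answers. Biweight averages used constants of 5 and 0.0001. The number of arrays limits the precision. Alternatives were quantile normalization, median centring, a replicate block, the Y-coded signal as a block or to part the arrays at its widest gap, omission of dim probe sets (those above the 30th percentile on 6 or more arrays were kept), a robust eBayes with an intensity trend, and leaving out each array. Genes named beside Dbp are Slc2a1, the 5 named genes of highest and of lowest r, Minos1 at the 2-fold bound, and Dcn as a listed marker. The authors' table names 1 further gene that is not reported here and was left out of this choice. Dbp, the lists and the rules were chosen with earlier results of these data known. A count of clock genes past the threshold was planned and not run, as the array's full annotation was not used here and the table of calls names none but Dbp. Sequence and coordinates are from RefSeq tables of GRCm38.p6.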

Additional observations from a re-analysis of the deposited data

Results flagged for a closer look

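Of 22 groups of 6 values examined (Dbp and the 10 genes of highest or lowest r, in each genotype), 0 held a mouse far enough from the others to pass Dixon's 95% limit, where chance gives about 1.1. For Dbp in cKO, mouse 6 lay at a gap of 0.584 of the group's range, under the limit for 6 values.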

How the results depend on the processing

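Dbp was higher in cKO under the 21 alternatives compared with the main result, by 0.75 to 1.24 on the log2 scale. Each lay within 1 SD of the 0.87 over all mice by means, where the SD is that of single mice within a genotype. That SD is wider than the SE of the difference, 0.31. The difference was 0.86 with quantile normalization and 0.90 with median centring. On leaving out each array the range was 0.75 to 1.08 by means. By biweight averages, which are not among the 21 on leaving out arrays, it was 0.98 to 1.55, and 1.55 lies more than 1 SD away. The constant direction is no support, since Dbp was chosen by its difference on these arrays. Of the 5 named genes most like Dbp, 4 or 5 stayed among the 5 with Spearman's rho, without centring and on leaving out each array or the 2 farthest, but 1 without cKO mouse 6, WT mouse 1 and WT mouse 2. There r was -0.07 for Gstp2, -0.10 for Usmg5, 0.10 for Plxdc2 and 0.83 for Pim1, opposite in sign to the r over 12 mice. Fewer arrays entered there, and the cause was not tested.

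The count of probe sets with an unadjusted p under 0.05 and a 2-fold difference of means was 25. They numbered 52 among the 7 arrays of high Y-coded signal and 86 among the 5 of low, where fewer arrays were fitted, and 21 to 45 on leaving out an array (45 without WT mouse 2, 39 without WT mouse 6). Those past an adjusted p of 0.05 in limma numbered 1. They numbered 0 among the 7 arrays of high Y-coded signal, where 731 (3.29%) had an unadjusted p under 0.05, and 1 to 2 on leaving out an array (2 without WT mouse 4).

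With the replicate number as a block, Dbp differed by 0.87 (SE 0.25) and 40 probe sets passed the unadjusted p and 2-fold. Deviations of same-numbered mice correlated at 0.14 to 0.39 in 5 of 6 pairs and at -0.26 in pair 4, and 0 of 6 cKO mice correlated best with their own number. The labels tie no number to a litter or batch, so the numbers were not taken as pairs.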
